A study of Bos taurus with 13 samples.

Results

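The genes described here are 8 that mark the lining of the rete testis and the excurrent ducts: KRT7, KRT8, KRT18 and KRT19, CDH1, EPCAM, PAX2 and PAX8. They were chosen by symbol, as the probe sets whose only platform symbol was one of these names. Each gene had exactly 1 such probe set, so 8 of the 18087 genes with a probe set of their own were followed. All 8 gene identifiers were found in the RefSeq gene table (assembly ARS-UCD2.0).

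The rete testis is the network of channels that collects sperm from the seminiferous tubules and passes it to the efferent ducts and the epididymis. Its lining is a simple epithelium, and the epididymis forms from the Wolffian duct. Simple epithelia build their intermediate filaments from pairs of keratins, the type II keratins KRT7 and KRT8 with the type I keratins KRT18 and KRT19. CDH1 (E-cadherin) and EPCAM hold neighbouring epithelial cells together, and PAX2 and PAX8 are transcription factors of the Wolffian duct and its derivatives. In the mouse, CDH1 and EPCAM are also carried by spermatogonia.

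The study measured testis RNA of 13 newborn bull calves on Affymetrix arrays, with 1 array and 1 animal per sample. The dams were Angus cross cows, 24 in number and 8 per treatment, that all ate freely of a mineral supplement with 35 ppm selenium, from 4 months before breeding to the end of gestation. In the Mix group (4 calves) 50% of the selenium came from each form, in the OSe group (4 calves) it was organic (Sel-Plex) and in the ISe group (5 calves) it was inorganic (sodium selenite). Testes were taken within 2 days of birth, and no group without added selenium was analysed here. The labels do not say which stretch of the testis was sampled.

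The deposited values are log2 expression values, which ran from 2.07 to 14.6 over 26773 probe sets. Array medians lay between 7.61 and 7.65 on 12 arrays and at 7.74 on that of OSe animal 2, and arrays correlated with each other at 0.979 to 0.991. Testis markers were bright: AMH, the Sertoli cell hormone, had its median at 12.49 and INSL3, the Leydig cell hormone, at 13.48. The Sertoli cell factor SOX9 had its median at 8.61 and the germ cell helicase DDX4 at 8.88. In bulk tissue, fewer cells of a type and less RNA per cell cannot be told apart, and this holds for every level below.

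The 8 epithelial genes were mostly dim. The mean over the 13 calves was 4.86 for KRT8, the lowest of them, and 7.87 for KRT18, the highest. For 7 of 8 the mean lay below the median of all probe set means (7.64), and for KRT8 and KRT19 it lay below the lower quartile (6.26). Brightness differs between probe sets for reasons of probe design, so these places describe the probe sets and not an order of the genes. No detection calls were used here, and how far the dim values stand above background was not tested.

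KRT18, the type I keratin that pairs with KRT8, held the widest spread of levels. It had log2 values of 8.01, 8.25, 7.83 and 9.06 in Mix animals 1 to 4, against 7.67, 7.82, 7.41 and 7.89 in OSe animals 1 to 4 and 7.70, 7.62, 7.61, 7.77 and 7.72 in ISe animals 1 to 5. All 4 Mix calves were above all 5 ISe calves, Mix animal 4 stood far above the rest, and Mix and OSe calves overlapped by 1 Mix calf (animal 3) under 1 OSe calf (animal 4). The range over the 13 calves spanned 3.14-fold.

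KRT8, the type II partner of KRT18, was the dimmest of the 8. Its log2 values were 4.87, 4.86, 4.55 and 4.87 in Mix calves, 4.87, 5.42, 4.95 and 4.65 in OSe calves and 4.87, 4.87, 5.03, 4.86 and 4.49 in ISe calves. The groups overlapped throughout, and the single high value belonged to OSe animal 2, whose array also had the highest median. Exactly the same value stood in 4 calves, and 4.54% of all probe sets had a value shared by at least 4 calves.

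KRT7, a type II keratin of ducts and glands, had log2 values of 7.27, 7.07, 6.27 and 6.62 in Mix calves. In OSe calves it had 6.57, 6.85, 6.56 and 6.09, and in ISe calves 6.53, 6.93, 5.89, 6.44 and 6.60. Both Mix animals 1 and 2 exceeded every other calf, while Mix animal 3 was among the low ones. KRT7 had the second widest span, 2.60-fold.

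KRT19, the smallest of the type I keratins and a common marker of ducts, had log2 values of 6.26, 5.85, 6.31 and 6.03 in Mix calves. In OSe calves it had 6.33, 6.22, 6.11 and 5.96, and in ISe calves 6.36, 6.33, 5.63, 6.55 and 5.98. The ISe group alone held both the lowest and the highest calf, and the other groups lay inside that range.

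CDH1, the adhesion molecule of epithelial junctions, had log2 values of 6.73, 6.47, 6.99 and 6.71 in Mix calves, 6.62, 6.62, 6.59 and 6.26 in OSe calves and 6.62, 6.65, 6.56, 6.73 and 6.27 in ISe calves. Mix animal 3 was the highest, OSe animal 4 and ISe animal 5 were the lowest, and the other 10 calves lay close together. Exactly the same CDH1 value stood in 3 calves (OSe animals 1 and 2 and ISe animal 1). Of all probe sets, 28.5% had a value repeated in any calves, a looser rule than 3 equal values, and 4.54% had one shared by at least 4 calves.

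EPCAM had log2 values of 6.61, 7.07, 7.25 and 7.09 in Mix calves, 7.13, 6.64, 6.81 and 6.39 in OSe calves and 6.66, 6.81, 6.31, 7.26 and 6.48 in ISe calves. High calves occurred in every group (Mix animals 2 to 4, OSe animal 1 and ISe animal 4), and ISe animal 3 was the lowest. The span over calves was 1.93-fold.

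PAX2 had log2 values of 7.06, 7.33, 7.66 and 7.36 in Mix calves, 7.22, 7.14, 7.07 and 7.15 in OSe calves and 7.13, 7.30, 6.85, 7.46 and 7.13 in ISe calves. Mix animal 3 and ISe animal 4 were the highest and ISe animal 3 the lowest, much as for EPCAM, while the 4 OSe calves lay close together.

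PAX8 varied least. It had log2 values of 6.79, 6.79, 6.75 and 6.75 in Mix calves, 6.79, 6.57, 6.60 and 6.90 in OSe calves and 6.65, 6.95, 6.63, 6.80 and 6.82 in ISe calves, a span of 1.30-fold. Exactly the same PAX8 value stood in 3 calves (Mix animals 1 and 2 and OSe animal 1). The standard deviation of PAX8 over calves was 0.11, against a median of 0.17 over all probe sets. The other 7 genes lay above that median, from 0.19 for CDH1 to 0.41 for KRT18.

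**Figure D1:**
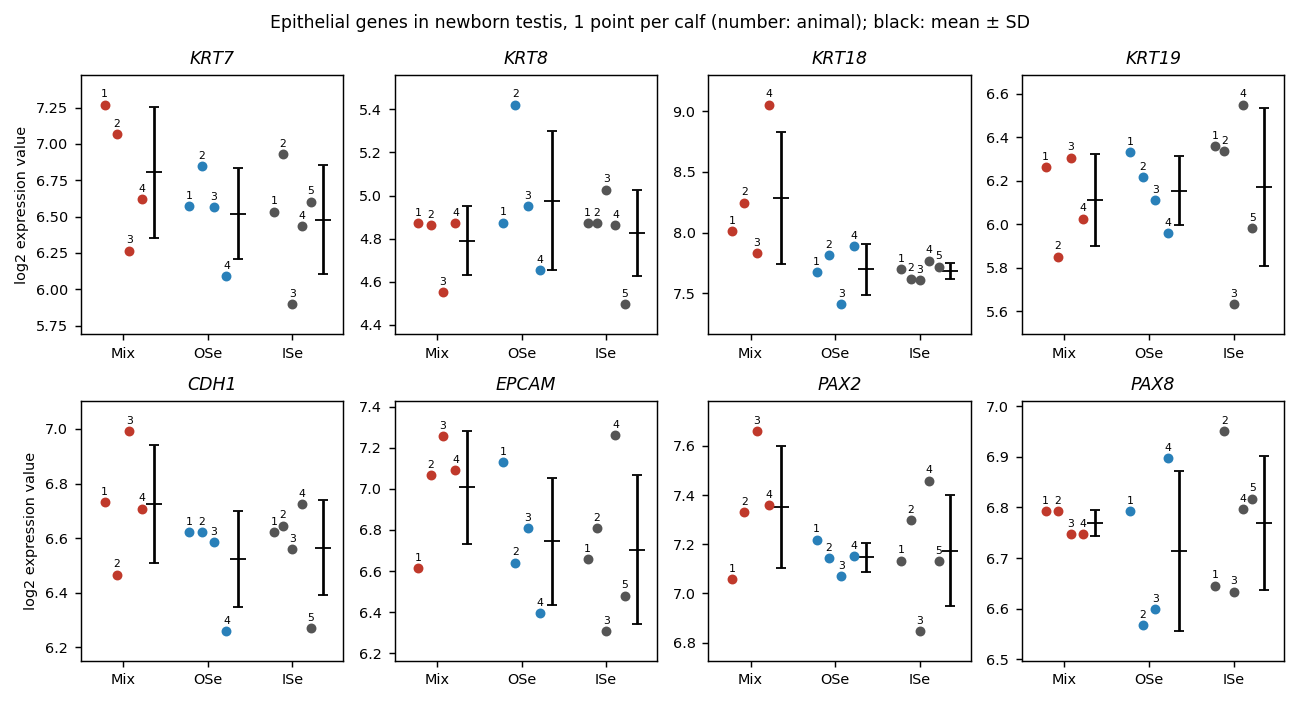
Log2 expression values (vertical axes, a separate range for each gene) of the 8 epithelial genes, with 1 numbered point per calf in the Mix, OSe and ISe groups and the mean ± SD in black. The 4 Mix calves lie above the 5 ISe calves for KRT18, and the groups overlap for the other 7 genes.

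The study asks whether the form of selenium given to the dam goes with a different testis transcriptome in the calf. All 13 arrays were fitted together in limma, and p-values were adjusted by the Benjamini-Hochberg method over all 26773 probe sets. The 3 comparisons share calves with one another, so their results are not separate evidence.

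Between Mix and ISe calves, KRT18 was the epithelial gene with the largest difference. KRT18 averaged 8.29 ± 0.54 in Mix calves (SD, n = 4) and 7.68 ± 0.07 in ISe calves (SD, n = 5), a log2 change of 0.60 ± 0.19 (SE, 95% interval 0.18 to 1.02), or 1.52-fold. It did not pass the adjusted test (limma adjusted p = 0.967, unadjusted p = 0.00835). The exact two-sided permutation test gave 0.00794, the smallest value that 126 arrangements of 4 against 5 calves can give, and 0.96 after adjustment over all probe sets. Without Mix animal 4 the log2 change was 0.35, with a limma unadjusted p of 0.0129 and an adjusted p of 0.977.

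Mix calves averaged higher than ISe calves for 6 of the 8 genes, where 51.5% of all probe sets did, and the median log2 change of the 8 was 0.17, against 0.0047 over all probe sets. EPCAM averaged 7.01 ± 0.28 in Mix calves (SD, n = 4) and 6.70 ± 0.36 in ISe calves (SD, n = 5), a log2 change of 0.30 ± 0.20 (SE, limma unadjusted p = 0.144). KRT7 averaged 6.81 ± 0.45 in Mix calves and 6.48 ± 0.38 in ISe calves, a change of 0.33 ± 0.23 (limma unadjusted p = 0.178). These changes were not larger than the spread between calves, and their 95% intervals reached from -0.12 to 0.72 for EPCAM and from -0.17 to 0.82 for KRT7. PAX2 changed by 0.18 ± 0.13 and CDH1 by 0.16 ± 0.12 on the log2 scale (SE). PAX8, KRT8 and KRT19 had changes of 0.00075 ± 0.09, -0.04 ± 0.15 and -0.06 ± 0.17, with intervals that covered 0.

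No probe set passed the adjusted threshold of 0.05 in this comparison (0% of 26773). At an unadjusted p under 0.05, 1 of the 8 genes was called, KRT18, against 3.72% of all probe sets and 1.71% called as higher in Mix. KRT18 was also the single gene of the 8 whose groups did not overlap, which held for 1.02% of all probe sets and, with Mix on top, for 0.549%.

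Between OSe and ISe calves the 8 genes lay close together. OSe calves averaged higher for 4 of 8, where 59.5% of all probe sets did, and the median log2 change was -0.0016, against 0.02 over all probe sets. KRT18 averaged 7.70 ± 0.21 in OSe calves (SD, n = 4) and 7.68 ± 0.07 in ISe calves (SD, n = 5), with a log2 change of 0.01 (95% interval -0.41 to 0.43). The largest change was that of KRT8, 0.15 ± 0.15 (SE), and the lowest that of PAX8, -0.05 ± 0.09. None of the 8 reached an unadjusted limma p under 0.05, against 2.62% of all probe sets, and none had groups without overlap, against 0.743%. No probe set passed the adjusted threshold (0%). The 95% intervals of the 8 genes still held changes of up to 0.53 (KRT7) in one direction and -0.46 (KRT7) in the other.

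Between Mix and OSe calves, KRT18 again had the largest difference, 0.59 ± 0.21 on the log2 scale (SE, 95% interval 0.15 to 1.03), or 1.51-fold. It did not pass (limma adjusted p = 0.581, unadjusted p = 0.0129), and the exact two-sided permutation p over 70 arrangements was 0.0571. Without Mix animal 4 the change was 0.33 (limma unadjusted p = 0.02, adjusted p = 0.654). Mix calves averaged higher for 6 of 8 genes, against 45.3% of all probe sets, with a median change of 0.20 against -0.02 over all probe sets. KRT7 (0.29 ± 0.24), EPCAM (0.26 ± 0.21), PAX2 (0.20 ± 0.13) and CDH1 (0.20 ± 0.13) made up most of that, each with an interval that covered 0. KRT8 had a change of -0.19 ± 0.15.

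At an unadjusted p under 0.05, 1 of the 8 was called in this comparison, KRT18, against 8.53% of all probe sets and 2.69% called as higher in Mix. None of the 8 had groups without overlap, against 4.24%, and no probe set passed the adjusted threshold (0%). The moderated F test among the selenium forms called 1 of 8 genes without adjustment, again KRT18, against 4.5% of all probe sets, and 0% passed after adjustment. For KRT18 limma gave an F test p of 0.015 and an adjusted p of 0.954.

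**Figure D2:**
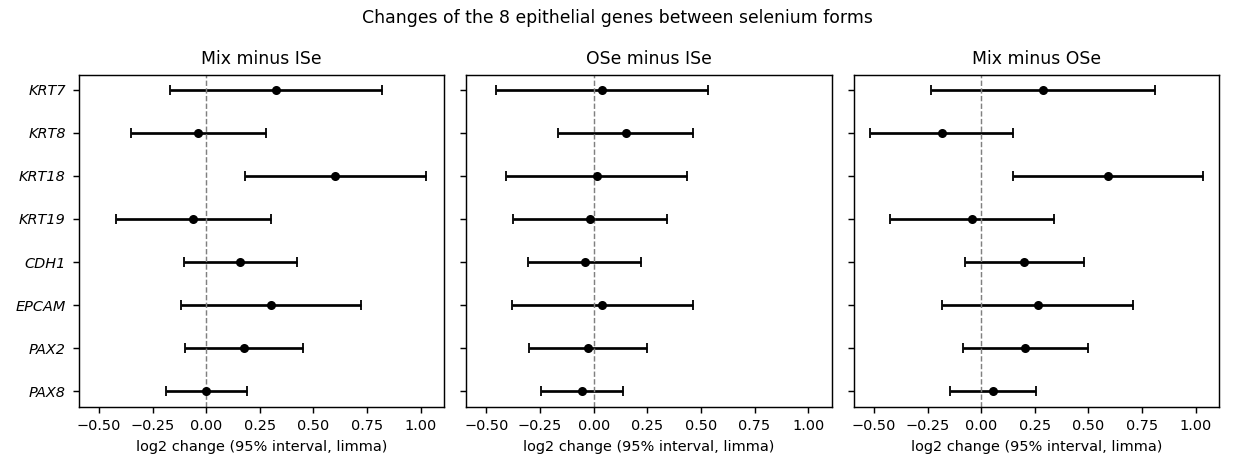
Log2 change of each of the 8 epithelial genes (points) with its 95% interval from the limma fit (bars) for Mix minus ISe, OSe minus ISe and Mix minus OSe, with a dashed line at 0. The intervals of KRT18 lie above 0 in both comparisons with Mix, and those of the other 7 genes cover 0 in all 3 panels.

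Genes that mark the same tissue are often read for its share in a sample when they are high or low together. To show how far these did so, each calf's deviation from the mean of each gene was averaged over the 8 genes. This mean deviation was 0.09, 0.10, 0.09 and 0.20 in Mix animals 1 to 4, against 0.04, 0.05, -0.09 and -0.19 in OSe animals 1 to 4 and -0.04, 0.08, -0.29, 0.13 and -0.17 in ISe animals 1 to 5. The Mix calves were all above 0, as were OSe animals 1 and 2 and ISe animals 2 and 4. Of these, the ISe calves lay among or near the Mix calves. It averaged 0.12 ± 0.05 in Mix calves, -0.05 ± 0.12 in OSe calves and -0.06 ± 0.17 in ISe calves (SD). KRT18 alone deviated by 1.19 in Mix animal 4, and over the other 7 genes the mean deviation of that calf was 0.06. Over those 7 genes the groups averaged 0.08 ± 0.02 in Mix calves, -0.03 ± 0.14 in OSe calves and -0.04 ± 0.19 in ISe calves (SD), and they overlapped. No calf was high for all 8 genes: at most 6 of 8 were above their own mean in any calf. ISe animal 3 was low for 7 of 8 (KRT8 was above its mean) and was the lowest calf for KRT7, KRT19, EPCAM and PAX2.

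Over the 28 pairs of the 8 genes, the median Pearson r across the 13 calves was 0.15, against 0.039 over all pairs of the 18087 genes. There were 22 pairs with a positive r and 6 with a negative one, and 54.4% of all gene pairs were positive. With group means removed, 18 of the 28 pairs were positive. A value of at least 0.5 was reached by 6 of 28 pairs (21.4%), against 8.3% of all gene pairs. The pairs share genes and calves and are not independent. With permutation p-values adjusted over the 28 pairs, 1 pair passed, and 3 had an unadjusted p under 0.05.

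That pair was EPCAM and PAX2. Their Pearson r over 13 calves was 0.84 (permutation p = 0.00015, adjusted 0.0042) and Spearman's rho was 0.80 (permutation p = 0.00173, adjusted 0.0484). Without the 2 calves farthest from the median of EPCAM, ISe animals 3 and 4, r was 0.76, and with group means removed it was 0.81. Leaving out 1 calf at a time gave 0.79 to 0.88, and 0.149% of all gene pairs had an r as high. Inside single groups of 4 or 5 calves, r was 0.94 in Mix, 0.38 in OSe and 0.94 in ISe calves.

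KRT19, CDH1, EPCAM and PAX2 were positively correlated in all 6 of their pairs, but the pairs other than EPCAM with PAX2 did not pass. CDH1 with EPCAM had an r of 0.63 (permutation p = 0.0201, adjusted 0.249) and a rho of 0.59, and r was 0.39 without the 2 calves farthest in CDH1. KRT19 with CDH1 had an r of 0.54 (permutation p = 0.0574, adjusted 0.292) and a rho of 0.67. The remaining pairs rested in part on single calves: KRT19 with EPCAM went to 0.36 and KRT19 with PAX2 to 0.26 without ISe animal 3, and CDH1 with PAX2 to 0.22 without Mix animal 3.

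None of the 6 pairs of keratins passed. KRT8 and KRT18, which form filaments as partners, had an r of -0.04 (permutation p = 0.868) and a rho of -0.42. KRT7 and KRT19 had an r of 0.30 (permutation p = 0.323), which was -0.07 without ISe animal 3, and KRT18 and KRT19 had an r of -0.19. KRT7 had an r of 0.23 with KRT8, which was 0.43 without ISe animal 3, and of 0.23 with KRT18, which was 0.43 without Mix animal 4. KRT8 and KRT19 had an r of 0.01. PAX2 and PAX8, the paired-box factors, had an r of 0.34 (permutation p = 0.255). The lowest r was that of KRT8 with PAX8, -0.60 (permutation p = 0.0267, adjusted 0.249), which was -0.41 without OSe animal 2. KRT8 is the dimmest of the 8, and its own r with the array median was 0.66, or -0.16 without OSe animal 2.

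**Figure D3:**
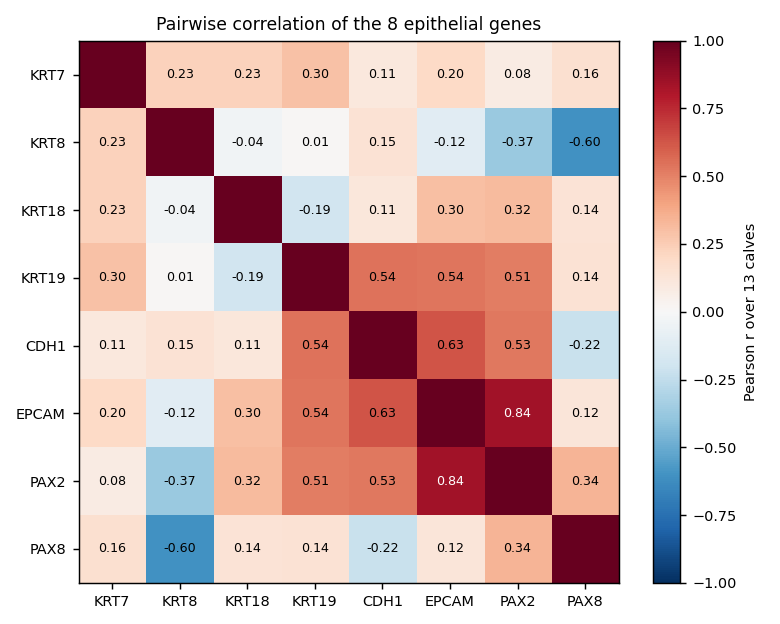
Pearson r over the 13 calves for each pair of the 8 epithelial genes, as a colour scale from -1 to 1 with the value printed in each cell. KRT19, CDH1, EPCAM and PAX2 form a block at 0.51 to 0.84, and KRT8 and KRT18 are at -0.04.

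Other genes of epithelia and of the Wolffian duct were set beside these 8. Of 22 other epithelial genes measured, 17 averaged higher in Mix than in ISe calves (median log2 change 0.06). In OSe over ISe calves 8 did (median -0.02), and in Mix over OSe calves 16 did (median 0.11). Over all probe sets these shares were 51.5%, 59.5% and 45.3%, with median changes of 0.0047, 0.02 and -0.02. None of the 22 genes passed after adjustment. At an unadjusted limma p under 0.05, 2 were higher in Mix than in ISe calves, against 1.71% of all probe sets. They were RAB25, a small GTPase of epithelial membrane traffic (6.87 ± 0.06 in Mix calves and 6.65 ± 0.10 in ISe calves, SD), and GRHL2, a transcription factor of epithelial junctions (6.35 ± 0.12 in Mix calves and 6.09 ± 0.18 in ISe calves, SD). Between OSe and ISe calves CLDN7 and PROM1 were lower at that level (log2 change -0.17 and -0.44), against 2.62% of all probe sets in either direction. Between Mix and OSe calves 4 were higher (KRT17, CLDN7, RAB25 and PROM1, by 0.21 to 0.42) and KRT5 was lower (-0.28), against 8.53% in either direction.

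Of 16 genes of the Wolffian duct and epididymis, 11 averaged higher in Mix than in ISe calves (median 0.07). In OSe over ISe calves 6 did (median -0.04), and in Mix over OSe calves 12 did (median 0.09). Over all probe sets these shares were 51.5%, 59.5% and 45.3%. At an unadjusted limma p under 0.05, 2 of 16 were higher in Mix than in ISe calves, against 1.71% of all probe sets: LHX1, a homeobox factor of the early Wolffian duct (7.35 ± 0.03 in Mix calves and 7.09 ± 0.16 in ISe calves, SD), and SIM1 (7.08 ± 0.15 in Mix calves and 6.86 ± 0.13 in ISe calves, SD). Between Mix and OSe calves 1 of 16 was at that level, SIM1 (log2 change 0.29), against 8.53% of all probe sets and 2.69% called as higher in Mix. Between OSe and ISe calves none of the 16 was, against 2.62%. None passed after adjustment.

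Among these genes, likeness to the 8 was ranked by Pearson r with their mean deviation over 13 calves, which is a description without a test. Of the epithelial genes, MUC1, a mucin of the apical surface, had an r of 0.83, DSP, the desmosome protein desmoplakin, 0.68, SPINT1 0.64 and ESRP2 0.60. At the other end were KRT5, a keratin of basal cells, at -0.38 and SPINT2 at -0.59. Of the Wolffian duct genes, LHX1 had an r of 0.83, the chloride channel CFTR 0.76, the receptor RET 0.73 and GATA3 0.63, while ESR1, the oestrogen receptor that efferent ducts use for fluid uptake, was at -0.48.

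A list of 7 catenins, other cadherins and partners of EPCAM was also followed. Of these, 3 averaged higher in Mix than in ISe calves, 5 in OSe than in ISe calves and 3 in Mix than in OSe calves. Over all probe sets these shares were 51.5%, 59.5% and 45.3%. CTNNB1 (beta-catenin) and CTNND1 (p120 catenin), which bind the tail of CDH1 and of other cadherins, had an r with the mean of the 8 genes of -0.59 and -0.46. The highest were CDH2 (N-cadherin) at 0.44 and JUP (plakoglobin) at 0.37. Their r with CDH1 itself ran from -0.66 (CD9) to 0.16 (CDH2), and their r with EPCAM from -0.57 (CTNNB1) to 0.46 (CDH2). Of the 7, JUP alone had an unadjusted limma p under 0.05, higher in Mix than in OSe calves (2.69% of all probe sets). It did not pass after adjustment.

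By the same measure, the germ cell markers nearest to the mean of the 8 were GFRA1 (0.73), DND1 (0.67), ZBTB16 (0.63) and MAEL (0.59), and even the farthest, NANOS3, was above 0 at 0.11. Lists of other cell types held genes at both ends. BNC1, a zinc finger protein of the mesothelium and of germ cells, was at 0.76, and MSLN, the mesothelial surface protein mesothelin, was at -0.58. CLDN11, the claudin of Sertoli cell tight junctions, was at 0.61, and AMHR2, the receptor of the Sertoli cell hormone, was at -0.53. Of the Leydig cell markers the highest was CYP11A1 at 0.18 and the lowest HSD3B1 at -0.48. Of the myoid markers DES was the highest at 0.46 and MYH11 the lowest at -0.12. Of the leukocyte markers CD14, of monocytes, was the highest at 0.58 and CD3E the lowest at -0.12.

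The level of the 8 genes was then set against the mean level of 10 lists of other genes, giving 80 relations over the 13 calves. After adjustment over the 80, 2 passed, and both were with germ cell markers. PAX2 had a Pearson r of 0.88 with the mean of 11 germ cell markers (permutation p = 0.00014, adjusted 0.0060) and a rho of 0.83 (adjusted permutation p = 0.0288). EPCAM had an r of 0.85 (permutation p = 0.00015, adjusted 0.0060) and a rho of 0.84 (adjusted permutation p = 0.0288). As many as 1.28% of the genes outside the list followed it as closely as PAX2 did, and 1.89% as closely as EPCAM did.

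Both relations were present without the extreme calves and, pooled over the 3 groups, with group means removed. Inside each single group they were not computed. In the OSe calves PAX2 hardly varied (7.07 to 7.22), while the germ cell mean deviation ran from -0.35 to 0.06. Without Mix animal 3 and ISe animal 3, the calves farthest in germ cell markers, r was 0.73 for PAX2 and 0.77 for EPCAM, and with group means removed it was 0.88 for both. Leaving out 1 calf at a time gave 0.82 to 0.93 for PAX2 and 0.81 to 0.88 for EPCAM. Of single genes over all the lists, EPCAM ran closest with TDRD1 (r = 0.87), a protein of the germ cell piRNA pathway, the Wolffian duct gene RET (0.86), GFRA1 (0.86), the GDNF receptor of undifferentiated spermatogonia, and the epithelial gene DSP (0.85). PAX2 ran closest with GFRA1 (0.87), the mesothelium marker BNC1 (0.84), ATP6V1B1 (0.82), a proton pump subunit from the duct list, DND1 (0.81) and TDRD1 (0.81). The closest genes thus came from the germ cell, duct, epithelial and mesothelium lists, but the means of the last 3 lists followed less closely. With the Wolffian duct and epididymis list r was 0.23 for EPCAM and 0.47 for PAX2. With the other epithelial genes it was 0.58 and 0.51, and with the mesothelium list -0.16 and 0.04. RET is also the co-receptor that GFRA1 works with in spermatogonia. The r with germ cell markers was 0.61 for CDH1 (permutation p = 0.0285, adjusted 0.312), 0.54 for KRT19, 0.39 for PAX8, 0.28 for KRT18, 0.21 for KRT7 and -0.51 for KRT8.

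The mean deviation of the germ cell markers was 0.01, 0.12, 0.47 and 0.17 in Mix animals 1 to 4, against 0.06, -0.35, -0.10 and -0.26 in OSe animals 1 to 4 and -0.05, 0.12, -0.40, 0.26 and -0.05 in ISe animals 1 to 5. Mix animal 3 was the highest and ISe animal 3 the lowest, as for PAX2. All 11 germ cell markers averaged higher in Mix than in ISe calves, against 51.5% of all probe sets, with a median log2 change of 0.27. Of these, 2 had an unadjusted limma p under 0.05, against 1.71% of all probe sets called as higher in Mix. All 11 also averaged higher in Mix than in OSe calves (45.3% of all probe sets), with a median of 0.35 and 4 at that level (2.69%). None passed after adjustment. In OSe against ISe calves 2 of 11 averaged higher (59.5% of all probe sets), with a median of -0.13. The groups overlapped in the list mean. The part of germ cell markers in the higher Mix averages of EPCAM and PAX2 was not tested.

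**Figure D4:**
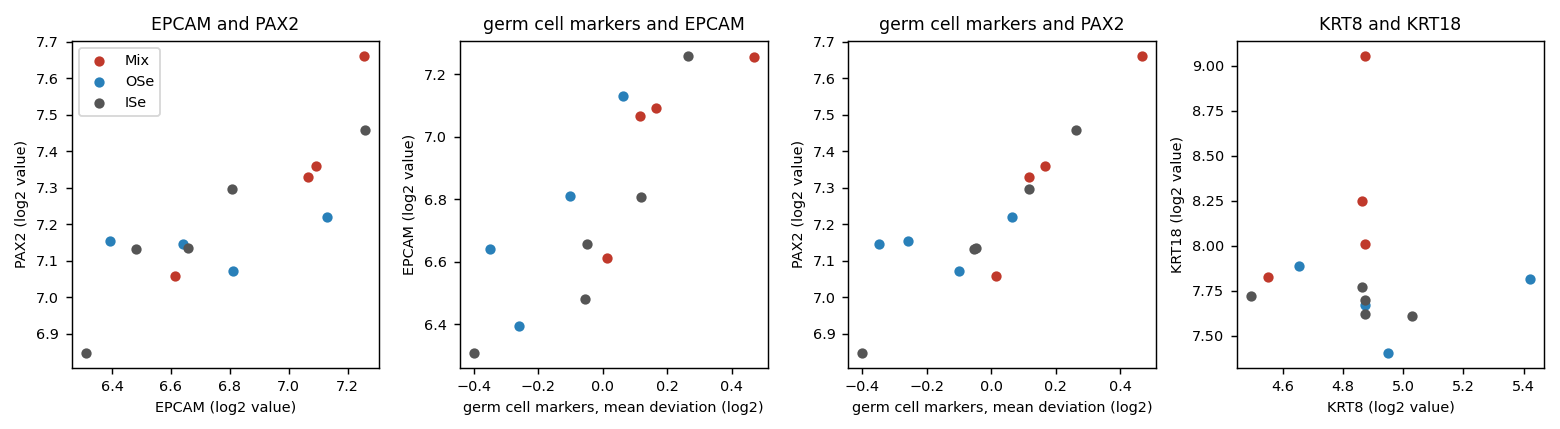
Each point is a calf, coloured by group (Mix, OSe, ISe). The panels set PAX2 against EPCAM, EPCAM and PAX2 against the mean deviation of 11 germ cell markers, and KRT18 against KRT8, all on log2 scales. The first 3 panels rise together (r = 0.84, 0.85 and 0.88), and the panel of the keratin partners does not (r = -0.04).

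Of the other relations, 7 had an unadjusted permutation p under 0.05 for Pearson's r and did not pass. CDH1 had an r of 0.76 with leukocyte markers (permutation p = 0.0021, adjusted 0.0565), which was 0.81 without the 2 calves farthest in those markers. KRT7 had an r of 0.69 with the other epithelial genes (permutation p = 0.0097, adjusted 0.194), and on the same list CDH1 had 0.60 and EPCAM 0.58. KRT8 had an r of 0.70 with endothelial markers, which was 0.32 without OSe animal 2, and 0.64 with markers of peritubular myoid cells, which was 0.41 without that calf. The last of the 7 was CDH1 with germ cell markers. For KRT18, the gene with the largest difference between groups, none of the 10 Pearson relations had an unadjusted permutation p under 0.05. With the Wolffian duct and epididymis genes its r was 0.32 (permutation p = 0.306) and its rho 0.67 (permutation p = 0.0146, adjusted 0.234). That r was 0.54 without Mix animal 4 and -0.10 with group means removed.

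For markers of other cell types the counts of higher averages are given beside those of all probe sets, 51.5% for Mix over ISe, 59.5% for OSe over ISe and 45.3% for Mix over OSe. No marker passed after adjustment. At an unadjusted limma p under 0.05, BNC1 of the mesothelium list was higher in Mix than in ISe calves (1.71% of all probe sets). SOX9 was higher in OSe than in ISe calves (2.62% in either direction). Between Mix and OSe calves SOX9, the Leydig cell marker HSD3B1 and the endothelial marker TEK were lower, and 1 leukocyte marker was higher (8.53% in either direction). Of 10 Sertoli cell markers 4 averaged higher in Mix than in ISe calves, 8 in OSe than in ISe calves and 2 in Mix than in OSe calves. Of 9 mesothelium markers, genes of the sheet that covers the testis, these counts were 3, 6 and 1, and of 6 endothelial markers 2, 6 and 0. Of 6 Leydig cell markers they were 5, 5 and 2, of 4 myoid markers 3, 2 and 2, and of 6 leukocyte markers 5, 3 and 5. The mean deviation of the Sertoli cell list ran from -0.13 to 0.01 in Mix calves, from -0.03 to 0.13 in OSe calves and from -0.08 to 0.02 in ISe calves. That of the mesothelium list ran from -0.18 to 0.10 in Mix calves, from -0.04 to 0.24 in OSe calves and from -0.07 to 0.05 in ISe calves. KRT18, whose protein immature Sertoli cells of several mammals also make, had a Pearson r of -0.40 with the Sertoli cell list and of -0.42 with the mesothelium list (permutation p = 0.191 and 0.153), with rho at 0.071 and 0.011. Mix animal 4 set the sign of both: without that calf r was 0.21 and 0.15.

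**Figure D5:**
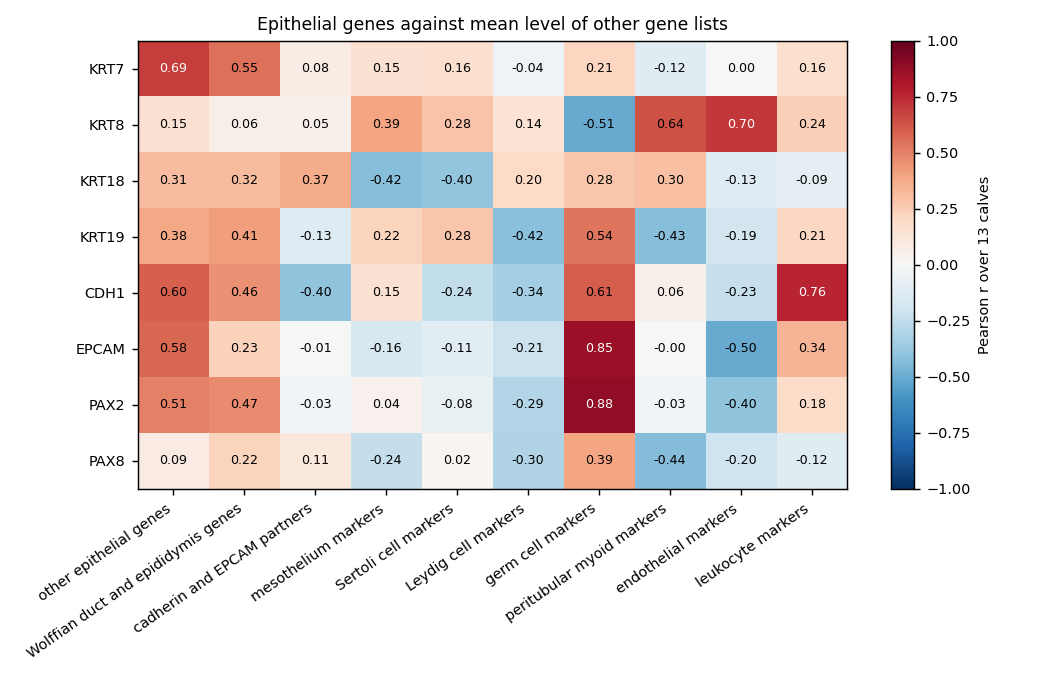
Pearson r over the 13 calves between each of the 8 epithelial genes (rows) and the mean deviation of 10 lists of other genes (columns), as a colour scale from -1 to 1 with values printed. The germ cell column holds the highest values, 0.85 for EPCAM and 0.88 for PAX2, and KRT8 is at -0.51 in it.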

How the data were processed

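The authors deposited a log2 value for each probe set on each array. The RNA was labelled as biotinylated cRNA, per the labels' protocols, and the software was GCOS 1.2 and Partek 6.4, per the submitters' processing notes, which name no steps. How background was corrected, probes summarised and arrays normalized is not given in the sources used here. Signal over background was therefore not computed, and precision is limited by the number of arrays. Samples were grouped by title. The platform annotation gave 18550 of 26773 probe sets exactly 1 symbol, 595 several and 7628 none. Of each gene in the other lists the probe set with the highest mean was used.

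A mean per group was fitted to all 13 arrays in limma 3.58.1 (R 4.3.3), with empirical Bayes moderation, two-sided tests and Benjamini-Hochberg adjustment over all probe sets at 0.05. The fit was tested on simulated data. Correlations used 100000 permutations (Python 3.11.15) and were adjusted within their family. The 8 genes, the lists, the tests and the rule for named genes were chosen with earlier results of these data known. The rule named all 8 genes, of each list up to 4 genes with the highest and up to 2 with the lowest r with the mean of the 8, the 10 genes with the highest and the 5 with the lowest r of all, and the 3 most like each of the 8. RAB25, GRHL2, SIM1, CLDN7, PROM1, KRT17, CD9, ATP6V1B1 and TDRD1 fall outside that rule and were chosen after their values were seen. Animal numbers 1 to 4 occur in all groups but mark different calves. Over 12 pairs with the same number the deviations correlated at -0.15 to 0.10, with 1 pair over 0.1. The numbers were therefore not used to pair the samples, though these values cannot exclude a shared batch. The alternatives were quantile normalization, median centring, a filter on dim probe sets, only probe sets with 1 symbol, no moderation, array weights, a replicate block and leaving out each calf. The mean without KRT18 and the list relations of KRT18 without Mix animal 4 were added after seeing the data.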

Additional observations from a re-analysis of the deposited data

Results flagged for a closer look

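Dixon's test at 95% was applied to 27 sets of values, the 8 genes and their mean in each of the 3 groups. In 3 sets a calf stood far apart from the rest. Chance gives this in about 1 of 20 sets of normally spread values without ties. Mix animals 1 and 4 shared the same KRT8 value, and OSe animals 1 and 2 the same CDH1 value, so that rate does not strictly hold. KRT8 was at 4.55 in Mix animal 3, while the other Mix calves lay at 4.86 to 4.87. CDH1 was at 6.26 in OSe animal 4, against 6.59 to 6.62 in the other OSe calves. The mean deviation of the 8 genes was 0.20 in Mix animal 4, against 0.09 to 0.10 in the other Mix calves. KRT18 carried most of it: over the other 7 genes the value of that calf was 0.06, against 0.06 to 0.11 in the other Mix calves.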

How the results depend on the processing

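For the 24 changes of single genes (8 genes in 3 comparisons), 463 of 498 values under the alternatives kept their direction and side of the adjusted threshold, 35 changed sign and 0 passed. With array weights KRT8 was at 0.014 and PAX8 at -0.019 for Mix minus ISe, and KRT7 at -0.045 and KRT18 at -0.027 for OSe minus ISe. With median centring PAX8 was at -0.0026 (Mix minus ISe) and KRT18 at -0.011 (OSe minus ISe), and with quantile normalization they were at -0.032 and -0.014. With the replicate block EPCAM was at -0.015 for OSe minus ISe, and the block changed no call. Leaving out 1 calf gave, for Mix minus ISe, -0.12 to 0.044 for KRT8, -0.19 to 0.035 for KRT19 and -0.033 to 0.046 for PAX8. For OSe minus ISe it gave -0.11 to 0.18 for KRT7, -0.051 to 0.11 for KRT18, -0.15 to 0.078 for KRT19, -0.12 to 0.046 for CDH1, -0.088 to 0.18 for EPCAM and -0.11 to 0.044 for PAX2, and for Mix minus OSe -0.11 to 0.044 for KRT19. The cause was not tested.

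The genes of the 8 with an unadjusted limma p under 0.05 numbered 1 to 3 for Mix minus ISe when 1 calf was left out: EPCAM joined KRT18 without ISe animal 4, EPCAM and PAX2 without Mix animal 1, and KRT7 without Mix animal 3. For Mix minus OSe they numbered 1 to 2, with PAX2 joining without Mix animal 1 and CDH1 without Mix animal 2. With all calves, 3.72% and 8.53% of all probe sets were at that level in these 2 comparisons. The shares with 1 calf left out are not given here, so nothing is read from the genes that joined. Without OSe animal 3, 1 probe set passed the adjusted threshold for Mix minus OSe and in the F test (0 to 1 over the calves left out). The median r over pairs ran from 0.09 to 0.23, and was 0.23 without KRT8, an alternative added after seeing the data. The relations of EPCAM and PAX2 with each other and with germ cell markers kept their call with quantile normalization, with median centring, with group means removed and without each calf in turn, alternatives that were added after seeing the data. The filter on dim probe sets leaves out KRT8 and KRT19, and the mean over several probe sets of a gene was not run because each of the 8 has 1.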

Other observations

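Over 14316 genes with a mean above the lower quartile, those whose level ran closest with the mean of the 8 epithelial genes over 13 calves were KIAA1549 (r = 0.90), FOXB2 (0.89), XK (0.89), FOXO1 (0.88) and EVA1C (0.88). FOXO1, a transcription factor that marks gonocytes and undifferentiated spermatogonia in the mouse, averaged 10.57 in Mix calves, 10.31 in OSe calves and 10.36 in ISe calves. The lowest values belonged to NFIA and RPP25L, both at -0.89. From the epithelial and Wolffian duct lists, MUC1 and LHX1 reached 0.83. The highest of 14316 genes would exceed the highest of short lists by number alone, so nothing is read from that gap.

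For single genes of the 8, the closest were PDE10A and URI1 for EPCAM (both 0.94), HTR4 (0.95), SYT14 (0.93) and NR2E1 (0.93) for PAX2, and ABCC12 (0.96) for CDH1. KRT7 ran closest with MED15 (0.89) and NANOS2 (0.88), a factor of male germ cells, KRT18 with EVX1 (0.90), KRT19 with SFRP1 (0.88), KRT8 with AGMAT (0.95) and PAX8 with CHRNB2 (0.86). No gene stood among the 3 closest of more than 1 of the 8. These values are the highest out of 14316 and describe these 13 calves.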
